A study of Capra hircus with 9 samples.

Results

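The most abundant features of the goat fetal fibroblast (GFF) transcriptome were examined after overexpression of lncRNA3720. Members were chosen by their measured level, an average of 500 FPKM or more across all 6 GFF libraries, and 138 of the 19781 features in the deposited table met this limit (0.698%). FPKM, fragments per kilobase of gene model and per 1000000 fragments, is a level per length, so that values of different features can be set side by side. The limit used the level over both groups together, and the levels that chose the members are therefore given as a description. The comparison of the groups was not part of the rule.

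The series holds 9 goat libraries, of which 3 come from embryos and were not used here. In the other 6, GFFs were transfected by lipofection and, by the study's methods, harvested after 36 h. The 3 GFF-control libraries received pcDNA3.1, the vector alone, and the 3 GFF-lncRNA3720 libraries received pcDNA3.1(+)-lncRNA3720, in which lncRNA3720 stands behind the CMV promoter. By the study's methods the cells were primary fibroblasts of a female Saanen fetus at day 40 of gestation, whereas the sample labels give ear margin as the tissue. Nothing in the labels says that replicates were separate cultures, and p-values then measure only the spread between these libraries. The question put to the libraries was which genes respond to lncRNA3720 in GFFs.

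Cultured fibroblasts are cells of connective tissue that secrete and remodel extracellular matrix. In such cells a small set of genes usually holds a large part of the messenger RNA, mainly genes for ribosomal proteins and translation factors, for the actin and intermediate filament cytoskeleton, and for collagens and other matrix proteins. Transcripts of ribosomal protein genes are typically short and those of fibrillar collagens and fibronectin long. Because sequencing counts are shares of a fixed number of fragments, a change in a few abundant genes also shifts the share left for all others. The deposited table names its features by running numbers, and 0 of them, members included, matched an identifier in the RefSeq gene table of the goat assembly ARS1.2. Which member is which gene is therefore not known here, no sequence is shown, and neither fibroblast markers nor lncRNA3720 itself could be looked up to check the labels. Members are called by their abundance rank, with rank 1 for the highest mean FPKM, and only the 2 largest rises and the 2 largest falls are given with their numbers. IDs of 136 members begin with "gene" and of 2 members with "rna".

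Each FPKM value could be turned back into a whole number of fragments, which gave the library totals, the fragments behind each value and the length of each gene model in bases. The library totals used by the authors were between 10839690 and 11031765 fragments in GFF-control and between 11795857 and 13567340 in GFF-lncRNA3720. Depth thus differed between the groups, and its part in the results was not tested. Every member value rested on at least 721 fragments, with a median of 12330.5 per member and library and a maximum of 370773. Counting alone gives a coefficient of variation of 0.964% for the median member in GFF-control and 0.842% in GFF-lncRNA3720. The measured median was 2.26% in GFF-control and 1.70% in GFF-lncRNA3720, against 7.06% and 5.91% over all 13094 features tested.

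Levels ran from 506 FPKM at the limit to 9422 FPKM, with a median of 976 FPKM over the 138 members. Only 13 members had a mean of 2000 FPKM or more, and 67 had 1000 or more. Just inside the limit, ranks 136, 137 and 138 had means of 512, 507 and 506 FPKM. The 3 features just outside it had means of 495, 487 and 486 FPKM. Membership depended on the group for some features: 123 members were at 500 FPKM or more in both group means, 6 only in GFF-control and 9 only in GFF-lncRNA3720. In all 6 libraries, 120 members reached 500 FPKM.

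**Figure D1:**
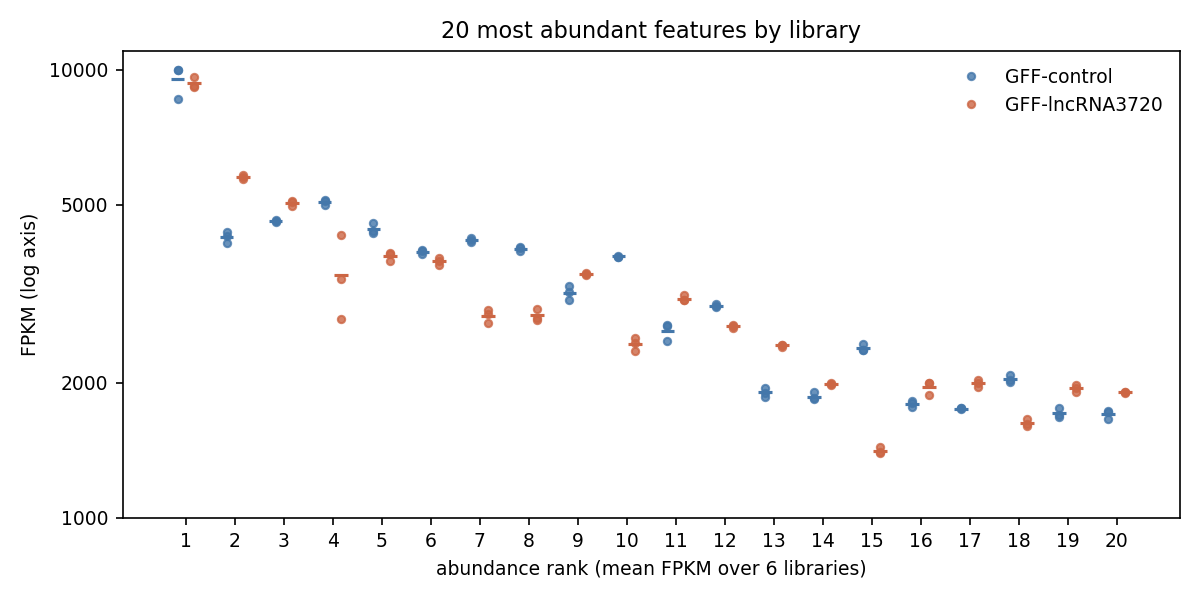
FPKM on a log axis for the 20 most abundant features, ordered by rank. Points are the 3 libraries of each group and short lines the group means. The libraries of a group lie close together for most ranks, with ranks 1 and 4 as visible exceptions. Ranks 4, 5, 6, 7, 8, 10, 12, 15 and 18 are lower in every GFF-lncRNA3720 library than in any GFF-control library.

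The labels give reads of 125 bases, in a protocol that describes only the embryo libraries. Rank 1 had a gene model of only 66 bases, shorter than such reads, and its ID begins with "rna". It was at 9966, 9995 and 8587 FPKM in the GFF-control libraries and at 9162, 9209 and 9614 FPKM in the GFF-lncRNA3720 libraries. The groups overlapped, and the difference was not significant (log2 fold change -0.03 ± 0.05 SE, adjusted p = 0.73 from limma). Without GFF-control library 3, the lowest, the log2 fold change was -0.10 with an adjusted p of 0.018 from limma. Although it headed the list by FPKM, rank 1 took only 0.0628% of the fragments in GFF-control, because dividing by such a short length gives a high FPKM for few fragments. Rank 67, the other member whose ID begins with "rna" and the only other one shorter than 125 bases, had a gene model of 69 bases. Its mean was 1036 ± 95.5 FPKM in GFF-control and 970.9 ± 40.2 FPKM in GFF-lncRNA3720 (SD, n = 3 each), a difference that did not pass the test on FPKM (adjusted p = 0.25 from limma). On the share of the column total it fell, by 0.17 on the log2 scale (adjusted p = 0.036 from limma).

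Most of the abundant features differed between the groups, but by small amounts. By limma on log2(FPKM + 0.1), fitted over all 13094 features with a mean of at least 0.5 FPKM and with Benjamini-Hochberg adjustment, 122 of the 138 members had an adjusted p under 0.05 (88.4%), against 51.6% of all features tested. Of these, 95 rose in GFF-lncRNA3720 (68.8% of the members, 29.8% of all features tested) and 27 fell (19.6% of the members, 21.7% of all features tested). All 9 members at 500 FPKM only in the GFF-lncRNA3720 mean were among the rises. Of the 6 members at 500 FPKM only in the GFF-control mean, all but rank 137 were among the falls. In bulk RNA a different level per cell and a different number of expressing cells cannot be told apart. The test is more sensitive where values are less noisy: the median SE of the log2 fold change was 0.026 for members and 0.084 for all features tested. The groups did not overlap in 125 members (90.6%, against 60.2% of all features tested). Of these members, 97 were higher and 28 lower in GFF-lncRNA3720 (70.3% and 20.3% of the members, against 33.8% and 26.4% of all features tested). Every member that rose or fell by the test also had groups that did not overlap.

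No member reached the study's limit for a DEG, an adjusted p under 0.05 with a fold change above 2. By that limit 0 of the 138 members were called in limma, against 6.26% of all features tested (2.73% rose and 3.54% fell). With limma's voom on the fragments 0 members were called as well. No member had a fold change above 2, so the p-value could not change this count. The log2 fold changes of the members lay between -0.76 and 0.84, with a median of 0.16 (0.031 over all features tested). The median absolute log2 fold change was 0.20, below the 0.27 of all features tested, and 82 members changed by less than 0.25 in either direction. Only 23 members moved by more than 0.5, of which 11 were higher and 12 lower. The share of called features grew with level, from 37.5% at 0.5 to 5 FPKM through 57.3% at 5 to 50 FPKM and 76.4% at 50 to 500 FPKM to the 88.4% of the members. Over the same bands, 9.89%, 4.03%, 3.98% and 0% of the features were past the fold limit.

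**Figure D2:**
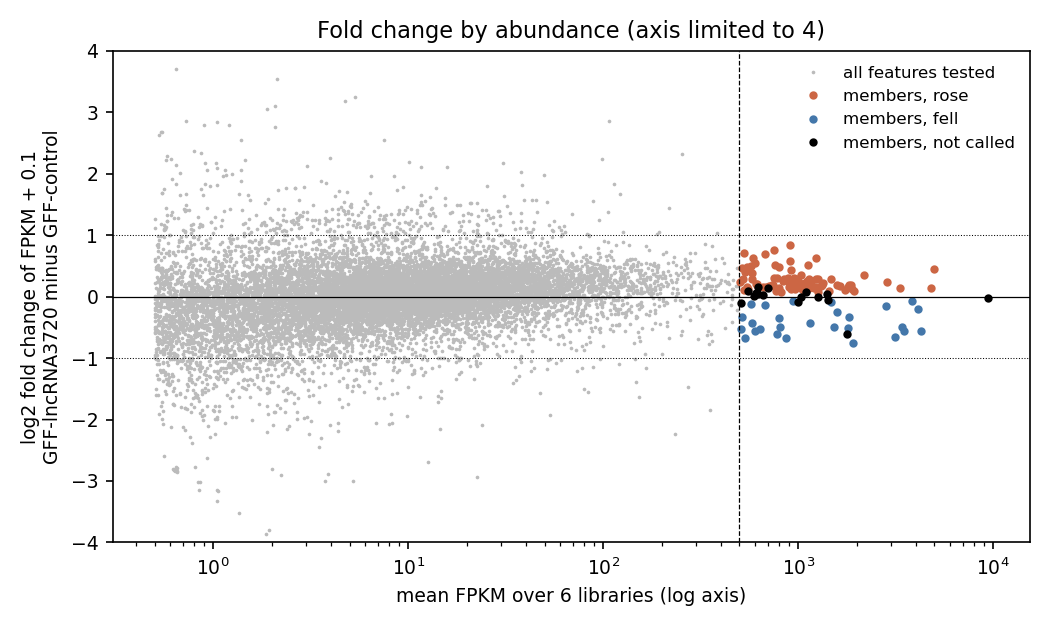
Log2 fold change (GFF-lncRNA3720 minus GFF-control, FPKM + 0.1) against mean FPKM on a log axis for all 13094 features tested (grey), with the members right of the dashed line at 500 FPKM coloured by the call. Dotted lines mark a fold change of 2 and the vertical axis is limited to 4 in each direction. All members lie between -0.76 and 0.84, inside the dotted lines.

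On FPKM, the members that rose and those that fell differed in the size of their changes. The 95 members that rose did so by a median log2 fold change of 0.20, and 59 of them by less than 0.25. In the 27 members that fell the median was -0.49, and only 8 changed by less than 0.25. The number of rises exceeded that of falls, but the median fall was larger. Among the called members, 11 rises and 11 falls were beyond 0.5, and the largest single change was a rise, of 0.84. These medians were taken on FPKM only, and not over all features tested.

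The balance of rises and falls depended on the scale. The FPKM values of all features summed to 422245 ± 3487 in GFF-control and 447332 ± 1523 in GFF-lncRNA3720 (SD, n = 3 each), 5.94% higher in the latter, with no overlap of the groups (exact permutation test, two-sided, p = 0.10, the smallest that 3 against 3 libraries allow). A feature that kept its share of this total would therefore show a higher FPKM in GFF-lncRNA3720, by 0.08 on the log2 scale. Tested on the share of the column total, 107 members were called (77.5%, against 50.1% of all features tested). Of these members, 73 rose and 34 fell (52.9% and 24.6% of the members, against 22.5% and 27.6% of all features tested). On the share the groups did not overlap in 113 members (81.9%, against 59.2% of all features tested). Of these, 79 were higher and 34 lower (57.2% and 24.6% of the members, against 26.3% and 32.9% of all features tested). On this scale, too, 0 members had a fold change above 2, whatever the p-value. Of all features tested, 7.03% passed both limits (2.35% up and 4.68% down). All 73 and 27 of the 34 had the same call on FPKM. A further 22 members rose on FPKM without a call on the share, and 7 fell on the share without a call on FPKM. Of the called members, 77.9% rose on FPKM, 68.2% on the share, 60.7% after quantile normalization and 61.5% when each column was scaled by the total of the features that are not members. Over all called features these percentages were 57.9, 44.8, 50.6 and 40.3, so that the balance of all features moved with the scale as well. The median log2 fold change of the members was 0.16 on FPKM and 0.08 on the share, where the medians over all features tested were 0.031 and -0.050.

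The members together had a higher FPKM sum but a lower share of the library after overexpression. Their FPKM values came to sums of 175142, 170521 and 173425 for GFF-control, against 176894, 178048 and 179338 for GFF-lncRNA3720. As a share of the column total these sums were 41.3%, 40.8% and 40.9% in GFF-control and 39.7%, 39.7% and 40.01% in GFF-lncRNA3720. The mean share was thus lower by 1.17 percentage points. On fragments, which are not divided by length, the members took 32.2%, 31.8% and 32.2% of the GFF-control libraries and 29.4%, 29.5% and 29.5% of the GFF-lncRNA3720 libraries. That difference came to -2.59 percentage points. In each of these 3 measures the groups did not overlap (exact permutation test, two-sided, p = 0.10, the smallest possible).

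Among the members, the lower share was found at the top of the list. Ranks 1 to 10 held 11.1 ± 0.246% of the column total in GFF-control and 9.57 ± 0.114% in GFF-lncRNA3720 (SD, n = 3 each), and 11.9 ± 0.0632% against 9.41 ± 0.0254% of the fragments. Ranks 11 to 50 held 14.4 ± 0.157% and 13.98 ± 0.0245% of the column total. The groups did not overlap in these 3 comparisons (exact permutation test, two-sided, p = 0.10 each, the smallest possible). The 88 members from rank 51 down held 15.5 ± 0.177% of the column total in GFF-control and 16.3 ± 0.0316% in GFF-lncRNA3720, again without overlap (exact permutation test, two-sided, p = 0.10). On fragments, however, they held 10.7 ± 0.104% and 10.8 ± 0.0074%, and the groups overlapped (exact permutation test, two-sided, p = 0.40). Summed over members, the 95 that rose on FPKM gained 2.75 percentage points of the column total and the 27 that fell had a net change of -3.43 points, while the 16 without a call accounted for -0.478 points.

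**Figure D3:**
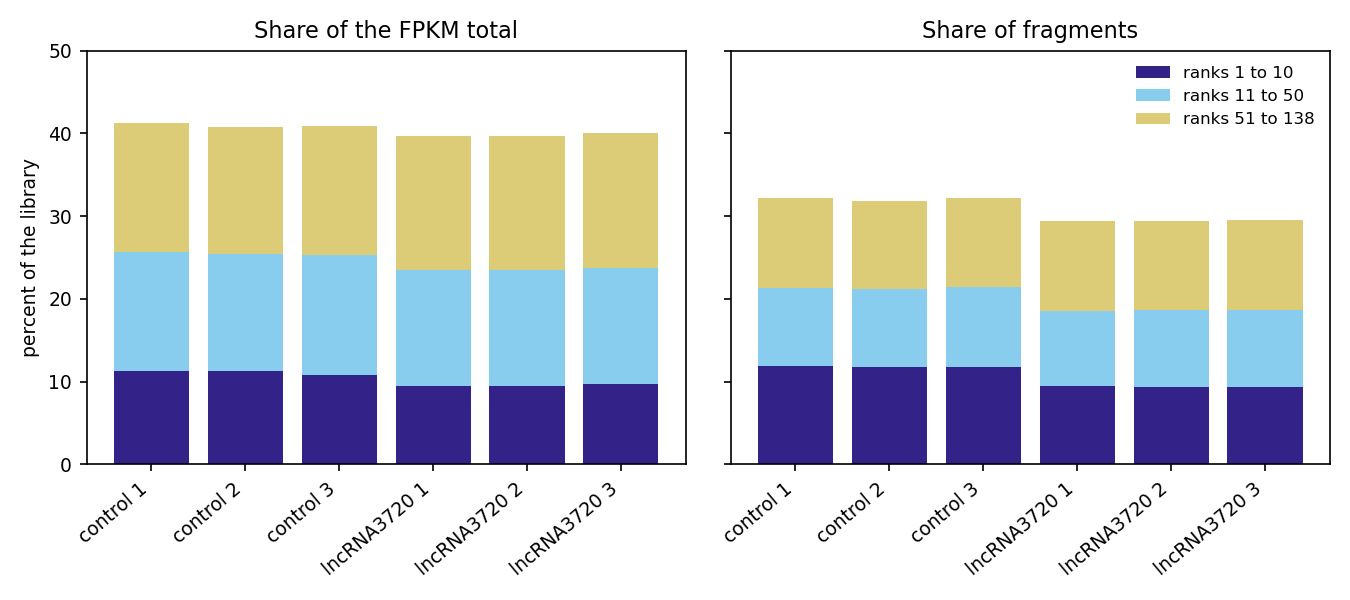
Stacked bars for each of the 6 libraries give the percentage of the FPKM column total (left) and of the library's fragments (right) held by ranks 1 to 10, 11 to 50 and 51 to 138. The dark segment for ranks 1 to 10 is shorter in all 3 GFF-lncRNA3720 libraries than in any GFF-control library, on both measures.

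The most abundant ranks did not move together. Rank 2 was at 4260, 4114 and 4334 FPKM in GFF-control and at 5771, 5820 and 5709 FPKM in GFF-lncRNA3720. All 3 treated libraries lay above all controls, and the log2 fold change was 0.45 ± 0.02 SE (adjusted p = 2.1e-06 from limma). This member had the largest gain in share, from 1.003% to 1.29% of the column total, and moved from place 5 in the order of the GFF-control means to place 2 in GFF-lncRNA3720. Rank 3 rose less, from 4596 ± 16.2 to 5043 ± 70.4 FPKM (SD, n = 3 each). Its rise passed the test on FPKM (adjusted p = 3.1e-04 from limma), but not with columns scaled by the features that are not members (adjusted p = 0.28 from limma) or after quantile normalization, where it held place 3 in every library and so could not differ. On the share (adjusted p = 0.030 from limma) it was lost when any library but GFF-lncRNA3720 3 was left out, with adjusted p values between 0.058 and 0.12. Rank 9 rose from 3176 ± 113 to 3496 ± 15.0 FPKM (adjusted p = 0.0025 from limma) and was not called on the share (adjusted p = 0.062 from limma). The call was also lost without a trend in the variance prior (adjusted p = 0.053) and with scaling by the features that are not members (adjusted p = 0.38, both from limma).

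Ranks 7, 8 and 10 fell by similar amounts. Rank 10 was at 3830, 3830 and 3840 FPKM in GFF-control and at 2520, 2456 and 2358 FPKM in GFF-lncRNA3720, a log2 fold change of -0.65 ± 0.03 SE (adjusted p = 8.2e-07 from limma). Rank 7 was at 4209, 4130 and 4164 FPKM in the controls and at 2905, 2855 and 2720 FPKM in the treated libraries (log2 fold change -0.56, adjusted p = 1.6e-06 from limma). Rank 8 was at 3999, 4027 and 3945 FPKM in the controls and at 2930, 2790 and 2770 FPKM in the treated libraries (log2 fold change -0.50, adjusted p = 2.1e-06 from limma). The 3 gene models are long, with 5933, 8357 and 5410 bases for ranks 7, 8 and 10, and each of their values rested on at least 150488 fragments. After quantile normalization their log2 fold changes were smaller, at -0.28, -0.17 and -0.40 for ranks 7, 8 and 10, and each still passed the test (adjusted p of 0.0012, 0.025 and 3.7e-06 from limma). Together with rank 4, ranks 10 and 7 had the largest losses in share, by 0.361 and 0.355 percentage points of the column total. Ranks 5 and 6 have short models of 613 and 635 bases. Rank 5 fell from 4416 ± 122 to 3840 ± 86.9 FPKM (SD, n = 3 each, adjusted p = 3.2e-04 from limma), a call that was lost after quantile normalization (adjusted p = 0.11 from limma). Rank 6 fell only from 3924 ± 39.2 to 3744 ± 68.7 FPKM (adjusted p = 0.019 from limma), a call that was lost in 4 of the 6 fits that leave out 1 library and turned around after quantile normalization. The lost calls came without GFF-control 1 or 3 or GFF-lncRNA3720 1 or 3, with adjusted p values from 0.054 to 0.066. Quantile normalization sets each value by its place in the library. In the order of group means, rank 6 went from place 8 in GFF-control to place 5 in GFF-lncRNA3720.

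The largest rise among the members was in rank 82 (gene2512), with a gene model of 992 bases. It was at 657, 635 and 655 FPKM in GFF-control and at 1130.5, 1153 and 1201 FPKM in GFF-lncRNA3720. The log2 fold change was 0.84 ± 0.03 SE (adjusted p = 4.9e-07 from limma), and its place in the order of group means went from 107 to 51. Rank 99 (gene5068, 1745 bases) followed, at 562, 547 and 566 FPKM in the controls and 978, 952 and 897 FPKM in the treated libraries (log2 fold change 0.75 ± 0.03 SE, adjusted p = 1.5e-06 from limma). In both, the lowest treated library exceeded the highest control by a wide margin. Ranks 132, 105 and 119 came next, with log2 fold changes of 0.71, 0.69 and 0.63. Rank 132 was only at 402 ± 16.8 FPKM in GFF-control and 657 ± 10.3 FPKM in GFF-lncRNA3720, and rank 119 at 459 ± 10.5 and 711 ± 19.9 FPKM, so that the membership of both rested on the treated libraries. Rank 39 had the smallest of the 3 largest gains in share, rising from 979 ± 33.1 to 1504 ± 9.86 FPKM and from 0.232% to 0.336% of the column total, next to rank 82 with 0.154% and 0.260%.

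The largest fall was in rank 15 (gene24644), with a gene model of 1776 bases. Its values were 2447, 2368 and 2369 FPKM in GFF-control and 1443, 1394 and 1399 FPKM in GFF-lncRNA3720. The log2 fold change was -0.76 ± 0.02 SE (adjusted p = 3.7e-07 from limma), and it went from place 13 to place 32. Rank 86 (gene10627, 4591 bases) fell from 1093, 1081 and 1023 FPKM to 666, 657 and 681 FPKM (log2 fold change -0.67 ± 0.03 SE, adjusted p = 1.4e-06 from limma). Ranks 129, 10 and 95 completed the 5 largest falls, with log2 fold changes of -0.67, -0.65 and -0.61. Rank 129 was a member only through GFF-control, where it was at 658 ± 4.86 FPKM against 415 ± 21.7 FPKM in GFF-lncRNA3720. The groups did not overlap in any of these 5 members.

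Members that fell had longer gene models than members that rose. The 95 members that rose had a median length of 916 bases (middle 50% from 635 to 1413), and the 27 that fell a median of 2725 bases (middle 50% from 2028 to 5456). Of the 104 members under 2000 bases, 83 rose and 7 fell. Of the 34 members of 2000 bases or more, 12 rose and 20 fell, and of the 13 with at least 4000 bases, 3 rose and 9 fell. Over all features tested, by contrast, more rose than fell from 2000 to 4000 bases (32.3% against 22.4%). The members under 1000 bases (67 of 138, or 48.6%, against 10.3% of all features tested) were mostly among those that rose: of the 61 with 500 to 1000 bases, 52 rose and 3 fell, with a median log2 fold change of 0.18. Over all features tested of that length, 37.5% rose and 12.02% fell, with a median of 0.13. Short models were more frequent among the members than among all features tested, whose median length was 2843 bases against 1014 for the members. Length enters FPKM and so took part in the rule, and its distribution is a description.

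A weaker pattern of the same direction was present over all features tested, members included, except among the shortest. Of all features tested, 34.3% rose and 15.6% fell among those under 2000 bases, and 22.3% rose and 27.1% fell among those of 4000 bases or more. Under 500 bases, however, only 16.3% rose and 12.1% fell. Their median log2 fold change was -0.046, below the 0.041 of all features tested from 2000 to 4000 bases. Among the features with 50 to 500 FPKM, 61.0% rose and 13.1% fell under 2000 bases, 55.2% rose and 23.9% fell from 2000 to 4000 bases, and 45.0% rose and 35.1% fell at 4000 bases or more. Spearman's rho between length and log2 fold change was -0.26 across the 138 members and -0.13 across all features tested. Both are descriptions across features that share the same 6 libraries. RNA quality and fragment size are not given per library in the sources used here, and the part of length in these differences was not tested.

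**Figure D4:**
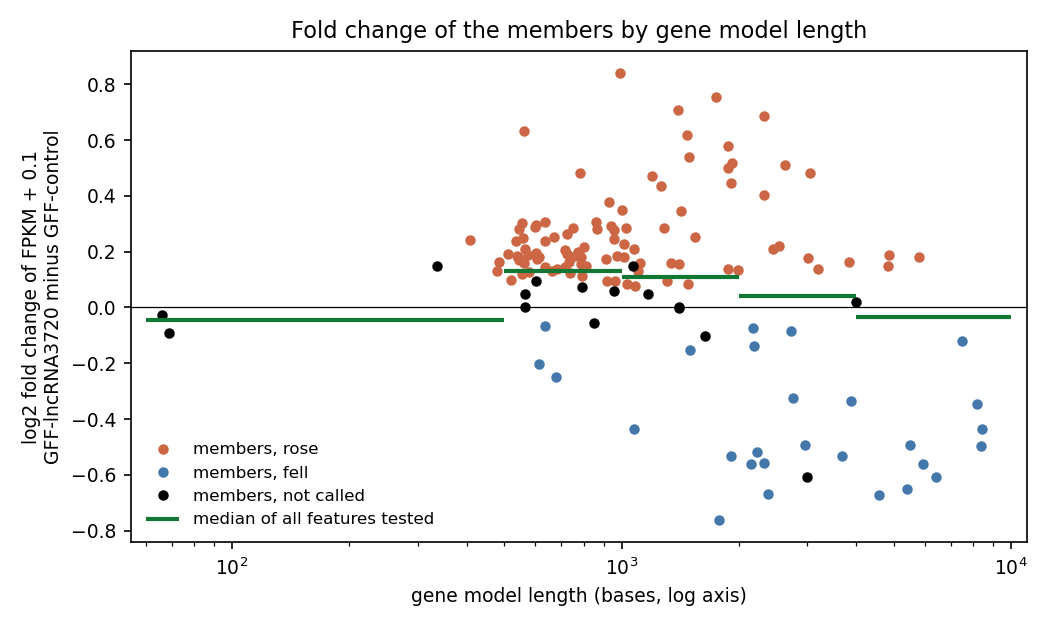
Log2 fold change of each member against its gene model length on a log axis, coloured by the call, with green lines for the median of all features tested in 5 length bands. Members that fell lie mostly at 2000 bases or more, and most members of 500 to 1000 bases lie a little above 0, with a median of 0.18.

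By length, the shift of share was unequal. The 34 members of 2000 bases or more held 11.1 ± 0.0856% of the column total in GFF-control and 8.65 ± 0.143% in GFF-lncRNA3720 (SD, n = 3 each). On fragments these were 20.3 ± 0.0322% and 16.3 ± 0.0596% of the library. In contrast, the 67 members under 1000 bases held 18.9 ± 0.308% of the column total in GFF-control and 19.5 ± 0.106% in GFF-lncRNA3720. For the 37 members of 1000 to 2000 bases these shares were 11.01 ± 0.0877% and 11.7 ± 0.0739%. The groups did not overlap in these 4 comparisons either (exact permutation test, two-sided, p = 0.10 each, the smallest possible).

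Most members were tight within a group, but ranks 4, 22, 109 and 111 had a coefficient of variation above 10% in a group. In GFF-control 122 of the 138 were under 5%, and in GFF-lncRNA3720 132. Rank 22 had the largest spread in each group, with 1668, 1940 and 2832 FPKM in GFF-control and 921, 1524 and 1849 FPKM in GFF-lncRNA3720. Its groups overlapped, and the log2 fold change of -0.61 ± 0.26 SE did not pass the test (adjusted p = 0.086 from limma). It passed without GFF-lncRNA3720 3 (-0.82, adjusted p = 0.039 from limma). It also passed with columns scaled by the features that are not members (adjusted p = 0.048 from limma) and with limma's voom on the fragments (adjusted p = 0.0040).

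Rank 4 was tight in the controls, at 5087, 5113 and 4999 FPKM, and spread in the treated libraries, at 2774, 3411 and 4282 FPKM. All treated values lay below all controls (log2 fold change -0.56 ± 0.13 SE, adjusted p = 0.0068 from limma), but with limma's robust variance prior the adjusted p was 0.0515. It had the largest loss in share, from 1.1999 ± 0.0224% to 0.780 ± 0.167% of the column total. Without GFF-lncRNA3720 1 the log2 fold change was -0.41 and without GFF-lncRNA3720 3 it was -0.72. Rank 109 showed the same form at a lower level, with 732, 735 and 774 FPKM in the controls and 429, 528 and 610 FPKM in the treated libraries (log2 fold change -0.53 ± 0.11 SE, adjusted p = 0.0036 from limma). In ranks 4, 22 and 109 alike, GFF-lncRNA3720 1 had the lowest and GFF-lncRNA3720 3 the highest value of the treated libraries. The same order was found in 35 of the 138 members and was not counted over all features tested. Ranks 4 and 22 were chosen for their spread, as was rank 109, so their shared order is a description.

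**Figure D5:**
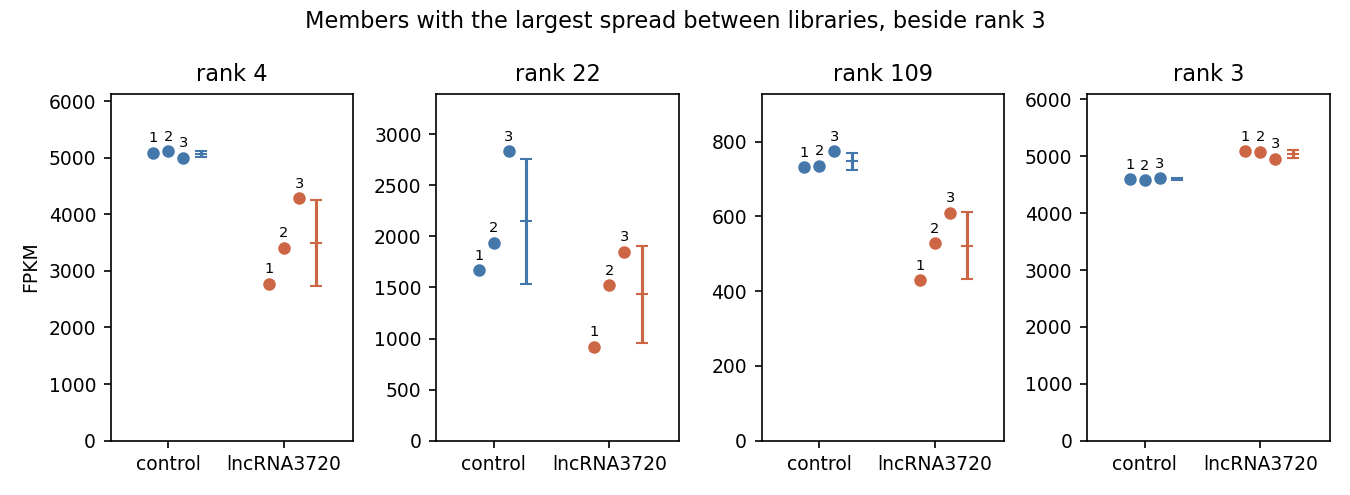
FPKM in each library (numbered points) with the group mean ± SD beside them for ranks 4, 22 and 109, which have the largest coefficients of variation within a group, and for rank 3. Treated libraries of ranks 4, 22 and 109 run from 2774 to 4282, 921 to 1849 and 429 to 610 FPKM, while those of rank 3 lie close together.

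Despite these changes the order of the members was largely kept. Across the 138 members, Spearman's rho between the group means was 0.91, a description across features of the same libraries. Of the 10 features with the highest mean in GFF-control, 9 were also among the 10 highest in GFF-lncRNA3720.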

How the data were processed

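The deposited values used here are FPKM per feature, 1 column for each of the 6 GFF libraries. The processing notes in the labels name TopHat2 2.0.12, Bowtie2 2.2.3, Cufflinks 2.1.1 and Cuffdiff for the series. The counter, the genome build and the annotation behind this table are not given in the sources used here. All columns of this table belong to a sample. The embryo tables were not used here.

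From the FPKM values, library totals, fragments and gene model lengths were recovered by searching, per feature, for the shortest length that turns its FPKM into whole fragments (tolerance 1e-06) in every library, found for all 19781 features. The recovered fragments came to between 99.3% and 99.4% of each total. Where fragments share a common factor, the true length can be a multiple of the one found. Groups were compared with limma 3.58.1 (R 4.3.3; lmFit followed by eBayes, variance trend on) on log2(FPKM + 0.1) for features with a mean of at least 0.5 FPKM, and in the same way on the share of the column total scaled to 1000000, + 0.1. Sums over members were compared between libraries with an exact permutation test. Calculations other than limma used Python 3.11.15, numpy 2.4.6, pandas 2.3.3 and matplotlib 3.10.9. The fit and the recovery were also run on simulated data. These were built from the recovered lengths and totals, so they cannot show that those lengths are the true ones. They gave every feature the same added spread, whereas the measured spread differed between members. Replicate numbers were not used as a pairing. The members and the tests were chosen with earlier results of these data known.

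Named by the rule were ranks 1 to 10, the 5 members that rose most and the 5 that fell most among called members without overlap of the groups, the 3 largest gains and losses in share, the 3 features on each side of the limit and the 3 largest coefficients of variation. Ranks 67 and 111 were added after their values were seen. Gene and marker lists that need names were not analysed here. Alternatives were other pseudocounts, filters, scalings, variance priors and limits, voom on the fragments, a block for the replicate number, and leaving out each library.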

Additional observations from a re-analysis of the deposited data

How the results depend on the processing

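The count of members that rose on FPKM was 95, against 54 after quantile normalization and 56 with columns scaled by the total of the features that are not members. Over all features tested, 3907, 3175 and 2655 rose in these fits. The limit for membership set the size of the list, with 243 members at 250 FPKM (159 rose and 48 fell) and 67 at 1000 FPKM (45 rose and 14 fell). Over all features tested, 29.8% rose and 21.7% fell. On the share, 42 members rose without a trend in the variance prior, against 73, and all features tested were not counted for that fit. On FPKM without that trend, 75 members and 3596 of all features tested rose. The median log2 fold change of the members was 0.032 after quantile normalization, 0.048 with scaling by the features that are not members, and between 0.14 and 0.17 when 1 library was left out. Of the named members, rank 6 had a log2 fold change of 0.21 after quantile normalization, which sets values by place, and rank 1 ranged from -0.10 to 0.012 when 1 library was left out. The cause of these differences was not tested. In the fit with the replicate number as a block, 94 members rose and 28 fell, where 3654 and 2603 of all features tested did. Deviations of same-numbered libraries correlated at -0.04, 0.01 and -0.10, and not every library correlated best with its own number, so the numbers were not taken as a pairing. The share of the column total held by the members stayed lower in GFF-lncRNA3720 in all alternatives tried, by 1.003 to 1.27 points when 1 library was left out. Of the 138 members, 0 passed the fold limit of 2 under any test, scaling, filter, pseudocount or left-out library tried. Other filters, variance priors and the replicate block leave the fold change as it is and so could not have altered this count. With other limits for membership, an alternative chosen after seeing the data, 3 of the 243 features at 250 FPKM and 0 of the 67 at 1000 FPKM passed it. Of all features tested, 6.26% did. With 3 libraries per group the exact tests could give no p below 0.10, and the part of depth was not tested.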
